A study of Mus musculus with 8 samples.

Results

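The Pi16 Dpp4 fibroblasts (FBs) of mouse dorsal skin, a class named for fascia-type connective tissue cells, comprised 881 of the 2003 FBs and of the 11118 cells kept from 26231 barcodes. Members were selected on measured genes. A kept cell had 500 to 4000 detected genes, at most 20000 unique molecular identifiers (UMIs, 1 per captured RNA molecule) and at most 10% mitochondrial UMIs. FBs were kept cells in which Col1a1, Col1a2 and Col3a1 together made up at least 1% of UMIs, with no UMI of the leukocyte gene Ptprc and fewer than 3 of the pericyte gene Rgs5. A member carried at least 4 of the 8 markers Pi16, Dpp4, Tmem100, Pla1a, Smpd3, Mrgprg, Efhd1 and Anxa3, and more of them than of each of 2 other lists of 8 markers. The same rule with the lists exchanged gave 400 Mgp Angptl1 Apod FBs and 435 Cxcl12 Tnmd Lepr FBs.

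The series compared skin injected with PBMCsec, the secretome of irradiated human peripheral blood mononuclear cells, with skin injected with vehicle, in 4 droplet-based single-cell libraries per group. All libraries came from 4 mm dorsal skin biopsies of female BALB/c mice aged 14 to 16 weeks, and every barcode belonged to a whole-skin dissociation, so no library was enriched for fascia. The labels give treatment and a library number from 1 to 4 and nothing that tells apart wounded skin, time points or kinds of vehicle. They give the injection as subcutaneous, whereas the paper that lists these data describes intradermal injection of scars. Nothing in the labels ties a library to 1 mouse or to a pool, so p-values measured the spread between libraries. PBMCsec libraries 1 to 4 held 52, 22, 213 and 151 members, and vehicle libraries 1 to 4 held 41, 22, 199 and 181. Members of these libraries summed to 485126, 200799, 1767133 and 1319029 UMIs with PBMCsec and to 424203, 225478, 1318577 and 1115756 with vehicle, so values from the libraries numbered 2 were the least precise.

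Pi16-positive FBs are known as a connective tissue population of fascia and of the sheaths around vessels in many organs, where they carry surface proteins of progenitor-type cells such as CD34 and Ly6a. Pi16 encodes a protein of the CAP superfamily that is named as a peptidase inhibitor, and Dpp4 encodes CD26, a membrane peptidase that clips dipeptides from chemokines and hormones. FBs of this type are regarded as a reserve that can give rise to other FBs, and FBs in general answer cytokines and injury by secreting chemokines.

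Detection of the selecting markers is a description, since it chose the cells. Every member carried at least 1 UMI of Pi16, and 95.01% (837 cells) carried Pi16 and Dpp4 together. All 8 markers were found in 203 members (23.0%), 7 in 303, 6 in 224, 5 in 106 and 4 in 45. Just outside the threshold stood 22 FBs with 3 markers of the list in the lead, at a median of 1533.5 UMIs per cell against 2442 in members with 4. Pi16 alone did not set the class apart, with a UMI in 81.8% of Mgp FBs and 77.5% of Cxcl12 FBs. Dpp4 was found in 59.3% and 23.9% of those cells. The narrowest markers were Mrgprg, a receptor of the Mas-related family, in 42.8% of members, 0.75% of Mgp FBs and 0 of 435 Cxcl12 FBs, which allows a share of cells with a UMI of up to 0.69%, and Efhd1, a calcium-binding mitochondrial protein, in 67.1%, 4.5% and 0.69%. Pla1a, a phosphatidylserine-cleaving phospholipase, was found in 96.8% of members, 42.3% of Mgp FBs and 2.99% of Cxcl12 FBs. In cells of other lineages, Pi16 had a UMI in 7.53% of 2165 Ptprc-positive cells and in 3.82% of 2201 keratin-rich cells. Dpp4, which T cells carry too, was found in 8.78% and 4.95% of them and Anxa3, an annexin, in 4.90% and 13.1%, so these cells do not lack every marker. The other 5 markers were found in at most 0.83% of either population. Median depth was 7572 UMIs in members, 9531.5 in Mgp FBs, 7809 in Cxcl12 FBs, 3887 in Ptprc-positive cells and 9730 in keratin-rich cells. With each cell thinned to 3000 UMIs, Pi16 was found in 99.4% of the 802 members deep enough, 68.3% of Mgp FBs and 72.2% of Cxcl12 FBs, and Dpp4 in 81.9%, 37.1% and 11.9%.

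**Figure D1:**
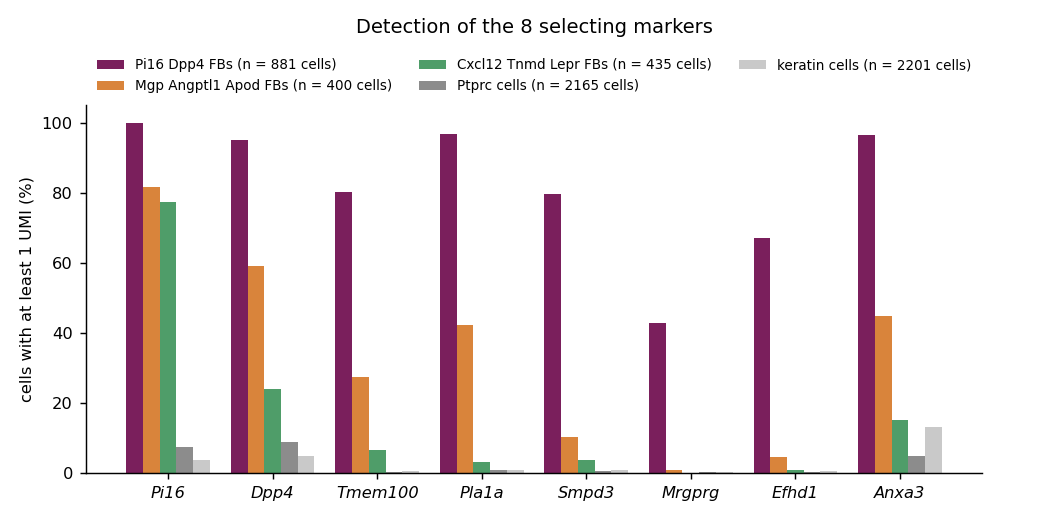
Share of cells with at least 1 UMI of each selecting marker (vertical axis, %) in the 3 FB classes and in 2 populations of other cells, with bars for the share over all cells of a population. Pi16 was found widely in all 3 FB classes, while Mrgprg reached 42.8% of members and 0.75% of Mgp FBs.

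In GENCODE M21 annotation of GRCm38, the build of the files (mm10), Pi16 spans chr17:29317680-29330593, Dpp4 chr2:62330073-62412231, Tmem100 chr11:90030348-90036508 and Pla1a chr16:38396117-38433145. Smpd3 spans chr8:106252548-106337988, Mrgprg chr7:143763710-143766993, Efhd1 chr1:87264363-87310839 and Anxa3 chr5:96793339-96845966. The 8 markers therefore lie on 8 different chromosomes.

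The label was checked against genes that the rule did not use. The FB receptor gene Pdgfra had a UMI in 85.0% of members, the matrix proteoglycan gene Dcn in 100% and its relative Lum in 98.2%. Pdgfrb, the other PDGF receptor, was found in 47.9% of members against 73.8% of Mgp FBs and 77.7% of Cxcl12 FBs. Acta2, the smooth muscle actin of myofibroblasts and mural cells, was found in 2.61%, against 13.8% and 24.1%. Of 12 genes on the list for papillary dermis, Crabp1 and Dkk1 were found in no member, while Pdpn, a mucin-type membrane protein, had a UMI in 75.9% of members, 75.5% of Mgp FBs and 72.0% of Cxcl12 FBs, and Axin2, a Wnt target, in 8.85% of members. The other 8 were found in at most 3.63% of members. Cdh5, a cadherin of endothelium, was found in 0 of 881 members, which allows, as for Crabp1 and Dkk1, a share of cells with a UMI of up to 0.341%, and Pecam1, another endothelial gene, in 0.57%. Kdr, a VEGF receptor gene on the same endothelial list, had a UMI in 25.1% of members, so members did not lack every gene of that list. The basal keratin gene Krt14 had a UMI in 31.7% of members, in 29.0% of Mgp FBs and in 37.0% of Cxcl12 FBs, a like share in all FB classes. A gene without a UMI may still be expressed below detection. The FB genes Pdgfra, Dcn and Lum were present, and fascia itself was not sampled apart from the rest of the skin.

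Marker lists of other cell types were summed over members as plain CPM, counts per 1000000 UMIs, in each library. The 12 keratinocyte genes summed to 348, 251, 334 and 645 CPM with PBMCsec and to 163, 318, 677 and 419 with vehicle, led by Lgals7. The groups overlapped. Sums of the 15 leukocyte genes ran from 9.94 to 38.2 CPM, led by the antigen presentation gene Cd74, with Ptprc at 0 by the rule and the T cell gene Cd3d at 0. The 12 endothelial genes summed to 15.4 to 73.1 CPM, of which 82.7% was the VEGF receptor gene Kdr, with Cdh5, Tie1, Emcn, Cldn5 and Lyve1 at 0. Skeletal muscle genes summed to at most 6.4 CPM in 7 libraries and to 4165 CPM in PBMCsec library 2, where all 813 UMIs came from 1 cell. The result for PBMCsec against vehicle was also computed without that library. Across the 8 libraries, 17 barcodes of kept cells were shared between libraries over 28 pairs of libraries, and 0 of them between members. No doublet caller was run. A fit without the 5% of members with the most UMIs is given with the other settings.

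Members of the libraries numbered 1 and 2 were deeper than those of the libraries numbered 3 and 4 in both groups. Median UMIs per member were 10257.5 and 9890.5 in PBMCsec libraries 1 and 2 and 8567 and 8572 in libraries 3 and 4, against 10794, 11652, 6604 and 5946 in vehicle libraries 1 to 4. Median mitochondrial shares were 2.98%, 6.36%, 3.26% and 5.17% with PBMCsec and 5.31%, 6.23%, 3.52% and 5.61% with vehicle. Whether the numbers mark a day, an experiment or a time point is not given in the labels. For injected scars, the paper describes 2 mice per group taken after treatment and 2 taken later without further treatment. Nothing in the labels ties these libraries to that design.

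Levels of the selecting markers are described by library, with no reading of library or treatment effects, since the rule required these genes and so shapes their levels. In the following, normalised CPM are CPM scaled by the TMM factors of edgeR. Smpd3, a neutral sphingomyelinase that releases ceramide, stood at 2311, 2981, 565 and 206 normalised CPM in PBMCsec libraries 1 to 4 and at 1423, 1553, 1094 and 406 in vehicle libraries 1 to 4, a 14.5-fold range. Mrgprg stood at 1007, 1125, 175 and 22.8 with PBMCsec and at 737, 1818, 481 and 126 with vehicle, a 79.9-fold range. In both genes and both groups, the libraries numbered 1 and 2 stood above those numbered 3 and 4. Detection of Mrgprg followed, with a UMI in 78.8%, 77.3%, 39.4% and 9.27% of members with PBMCsec and in 82.9%, 81.8%, 61.3% and 26.0% with vehicle. The other 6 markers varied 1.80-fold (Pla1a) to 3.17-fold (Dpp4) between the lowest and the highest library. Pi16 stood at 4251, 2362, 4136 and 5240 normalised CPM with PBMCsec and at 4217, 5430, 4120 and 4663 with vehicle, with overlapping groups. Dpp4 stood at 677, 340, 840 and 482 against 507, 285, 902 and 637, also with overlapping groups. Among cells, the 89 members with the most UMIs of a gene held 63.7% of all members' UMIs of Mrgprg, 46.7% of Smpd3 and 26.9% of Pi16.

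**Figure D2:**
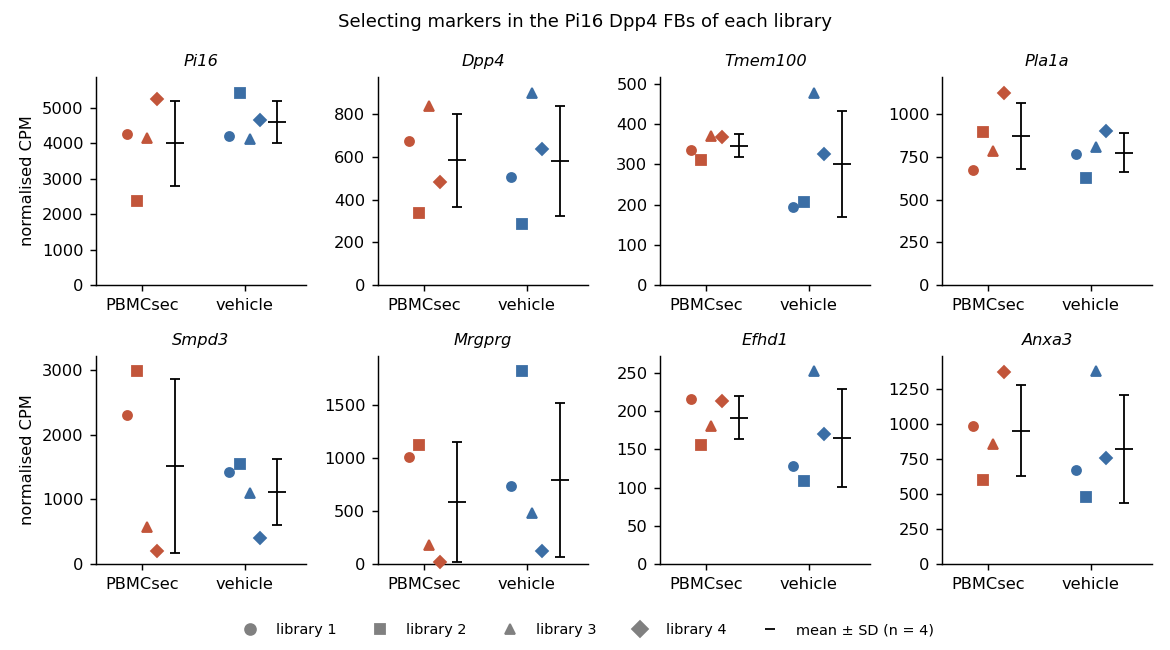
Normalised CPM of the 8 selecting markers in the members of each library (points) with the mean and SD of each group (lines, n = 4). Smpd3 and Mrgprg are high in the libraries numbered 1 and 2 and low in those numbered 4, while Pi16 spans 2362 to 5430.

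Members were next set beside the other 2 FB classes in the 5 libraries with at least 10 cells of each class (PBMCsec 1, 3 and 4, vehicle 3 and 4), as a description in plain CPM with no test, since measured genes chose the cells. Of 3151 genes with a mean of at least 50 CPM in members, 431 (13.7%) were higher in members than in both other classes in all 5 libraries and 155 (4.92%) were lower. That limit was set on the level in members, so it keeps genes that are high there and leaves out genes nearly absent there, and list counts are therefore also given without it. Of all 17006 genes with a UMI in any class, 693 (4.08%) were higher and 554 (3.26%) lower in all 5 libraries. Ratios were taken on log2 of CPM plus 10 within each library and then averaged over the 5 libraries.

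Of 26 genes on the list for fascia and vessel-sheath progenitors, none used by the rule but chosen with earlier results of these data known, 19 were higher in members than in both other classes in all 5 libraries and 0 were lower. Of the 22 that reached 50 CPM in members, 17 were higher, 11 at least 2-fold on average. Sema3c, a secreted guidance cue, measured 1020, 1103, 597, 1111 and 1006 CPM in members across the 5 libraries, at most 256 CPM in Mgp FBs and at most 465 CPM in Cxcl12 FBs. Wnt2, a Wnt ligand, measured 133 ± 27.7 CPM (SD, n = 5) against 25.9 in Mgp FBs and 3.11 in Cxcl12 FBs. Ackr3, a scavenging receptor for the chemokine CXCL12, measured 704 ± 87.3 CPM against 207 and 74.9. Cd34, the sialomucin of progenitor cells, measured 1708 CPM against 837 and 717. Cd55, which dampens complement, measured 906 CPM against 241 and 407. Igfbp6, which binds IGF-II, measured 3121 CPM against 1571 and 611. Among surface genes of the list that were not higher was Thy1 (CD90), at 407 CPM in members, 411 in Mgp FBs and 1027 in Cxcl12 FBs.

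Outside every selecting list, the gene with the largest ratio to the higher of the other classes was Aldh1a3, which makes retinoic acid. It measured 104, 143, 99.8, 163 and 151 CPM in members and at most 11.2 CPM in the other classes. The next were Duox2, an enzyme that produces hydrogen peroxide, at 88.1 ± 48.8 CPM (SD, n = 5) against 2.05 and 0.371, and Aif1l, an actin-binding protein, at 181 CPM against 17.3 and 12.2. Daglb, which makes an endocannabinoid, followed at 354 ± 274 CPM against 35.8 and 20.7, with a spread close to its mean. Cmah, which hydroxylates sialic acid, measured 339 ± 38.3 CPM against 56.2 and 12.2. Examples of secreted and receptor genes among the 25 highest were Bmp3, a BMP family ligand, at 73.4 ± 20.7 CPM against 2.02 and 6.93, Il33, an alarmin that acts on mast cells and type 2 lymphocytes, at 308 ± 200 CPM against 71.2 and 30.1, and Il4ra, the receptor chain for IL-4 and IL-13, at 405 ± 156 CPM against 120 and 49.4. Il33 ranged from 108 to 543 CPM between libraries, and its lowest value was above the highest in the other classes. Tek, the angiopoietin receptor, measured 179 CPM against 31.4 and 39.7, and Procr, the protein C receptor, 107 CPM against 23.6 and 0.38.

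Of the 10 genes named as lower in members than in both other classes, the one with the largest ratio was Cilp, a cartilage-type matrix protein. It measured 4.24, 3.99, 20.6, 24.4 and 3.61 CPM in members and at least 704 CPM in the other classes. Bgn, a small leucine-rich proteoglycan, measured 175 ± 35.9 CPM (SD, n = 5) against 1576 and 2078, and Igfbp7, an IGF-binding protein, 268 CPM against 1469 and 2135. Smoc2 measured 18.5 CPM against 465 and 202, Gas6, a ligand of TAM receptors, 83.9 against 991 and 541, and Ctgf, a matricellular protein, 5.64 against 161 and 94.5. Thbs4, a thrombospondin, measured 0.42 CPM against 183 and 79.3. Of 9 proteoglycan genes at 50 CPM or more in members, 0 were higher and 5 lower in all 5 libraries, with a median log2 ratio to the higher class of -1.08, and of all 15 on the list 0 were higher and 6 lower. Of 13 such collagen genes outside the rule, 0 were higher and 4 lower (0 and 7 of all 18), for example Col6a3 at 607 CPM against 1364 and 1504. Elastic fibre genes divided, with 4 higher and 3 lower of 16 (4 and 4 of all 21), and fibrillin-1 (Fbn1), the scaffold of microfibrils, measured 2530 CPM against 1340 and 1458. Peptidases and their inhibitors also divided, with 8 higher and 3 lower of 25 (9 and 5 of all 31). Plau, the urokinase gene, measured 529 CPM against 214 and 22.5, and Timp3, a metalloproteinase inhibitor, 1083 against 540 and 446.

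**Figure D3:**
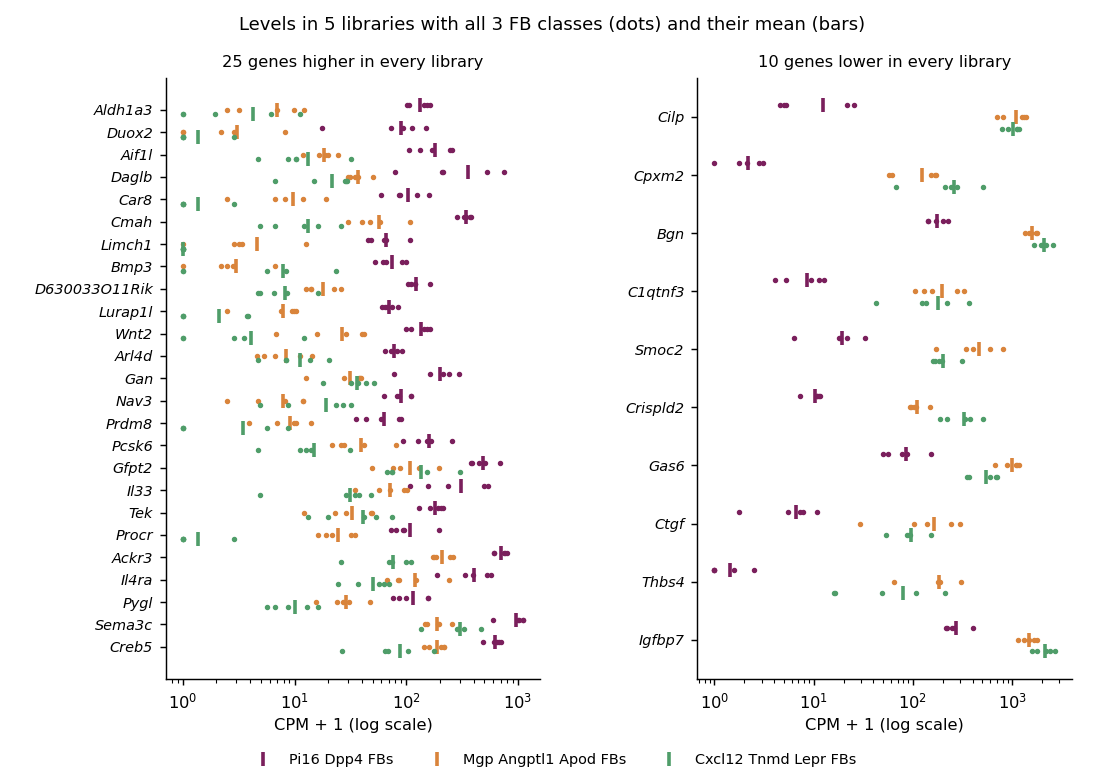
CPM plus 1 on a log axis for the 25 genes highest and the 10 genes lowest in members relative to both other FB classes, in the 5 libraries with all classes (points) and as means (bars). Points of members lie above or below those of both other classes of the same library for every gene drawn, by selection.

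The share of FBs that were members answers whether the class took up a different part of the FBs after PBMCsec. It was 29.7%, 25%, 42.2% and 50.5% in PBMCsec libraries 1 to 4 and 71.9%, 55.0%, 41.2% and 50.8% in vehicle libraries 1 to 4. The mean was 36.8% ± 11.6 (SD, n = 4) with PBMCsec and 54.7% ± 12.8 (SD, n = 4) with vehicle, a difference of -17.9 percentage points that did not pass a two-sided exact permutation test (p = 0.114, adjusted over 2 shares 0.229, smallest possible 0.0286). The groups overlapped. In the libraries numbered 1 and 2 the difference was -36.1 points, and in those numbered 3 and 4 it was 0.318 points. The libraries numbered 1 and 2 held few FBs, and the exact 95% binomial intervals, which cover counting error only, were 16.4% to 35.4% in PBMCsec library 2 and 58.5% to 83.0% in vehicle library 1. With equal numbers paired, an exact sign-flip test gave p = 0.375. Among all cells kept, members made up 4.81%, 4.16%, 8.41% and 9.44% with PBMCsec and 12.9%, 5.38%, 6.85% and 10.4% with vehicle. The difference was -2.17 points (exact permutation p = 0.371). It ran from -3.34 to -0.83 points when each library was left out and was 0.308 points in the libraries numbered 3 and 4 alone. Dissociation and the sorting of viable cells can set such shares.

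**Figure D4:**
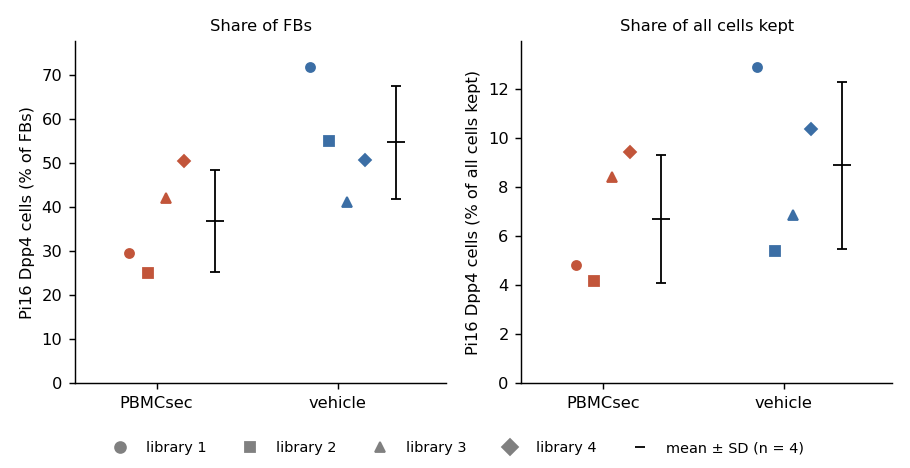
Members as a share of FBs (left, %) and of all cells kept (right, %) in each library (points) with the mean and SD of each group (lines, n = 4). PBMCsec libraries 1 and 2 lie lowest on both axes, and the libraries numbered 3 and 4 lie close together between groups for the share of FBs.

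Within members, genes were compared between PBMCsec and vehicle on UMIs summed per library with the quasi-likelihood test of edgeR. By unadjusted p the leading genes were the adhesion molecule Icam1 and the prostaglandin synthase Ptgs2, both with higher values in PBMCsec libraries 1 to 3 than in library 4 and in vehicle. No gene passed the adjusted threshold in this fit, in which 0 of 7755 genes (0%) were called at an adjusted p of 0.05. At an unadjusted p under 0.05, 127 genes (1.64%) were higher and 104 (1.34%) lower. With equal library numbers as a block in the fit, 3 genes (0.0387%) were called, all higher, namely Ptgs2, Il6 and Cxcl2. DESeq2 called 2 of 7754 (0.0258%), Ptgs2 and Icam1. Without PBMCsec library 4, edgeR called 6 of 6369 (0.0942%), all higher, namely Ptgs2, Il6, Cxcl1, Cxcl2, Icam1 and Ccl2. In the libraries numbered 1 and 2 alone it called 6 of 4481 (0.134%), Ptgs2, Il6, Cxcl1, Txnrd1, Hmox1 and Icam1, and in those numbered 3 and 4 alone 0 of 9117, with 176 at an unadjusted p under 0.05. Without PBMCsec library 2, which holds the cell with muscle genes, it called 0, with 224 at an unadjusted p under 0.05.

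Values of 103 genes (1.33%) were higher in all 4 PBMCsec libraries than in all vehicle libraries, and those of 106 (1.37%) were lower in all. The 10 genes named in each direction were taken from these by their unadjusted p, so their lack of overlap is not a result. Icam1 (ENSMUSG00000037405, chr9:21015985-21028817), which binds leukocyte integrins, stood at 168, 184, 143 and 29.3 normalised CPM with PBMCsec and at 5.69, 9.83, 23.9 and 24.1 with vehicle. PBMCsec libraries 1 to 3 were far above every vehicle library and PBMCsec library 4 just above the highest. In vehicle libraries 1 and 2, 3 UMIs would be 7.07 and 13.3 CPM, so the Icam1 values there rest on very few UMIs. The log2 fold change of Icam1 was 2.68 ± 0.51 (SE), with an edgeR adjusted p of 0.469 (0.107 with the block and 0.00011 with DESeq2). Ptgs2 (ENSMUSG00000032487, chr1:150100031-150108227), which encodes cyclooxygenase 2, stood at 605, 401, 185 and 66.6 normalised CPM with PBMCsec and at 54.1, 39.3, 56.7 and 36.1 with vehicle. Its log2 fold change was 2.69 ± 0.52, with an edgeR adjusted p of 0.469 (0.0346 with the block and 0.00011 with DESeq2).

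Chemokine and cytokine genes were described after their values were seen. Cxcl1 (chr5:90891241-90893115), which attracts neutrophils, stood at 1653, 691, 885 and 32.5 normalised CPM with PBMCsec and at 199, 78.6, 180 and 95.4 with vehicle (log2 fold change 2.53 ± 0.71). Cxcl2 (chr5:90903871-90905938), its neighbour on the chromosome, stood at 1168, 284, 509 and 1.63 against 51.2, 0, 36.5 and 0. In the libraries at 0, 3 UMIs would be 13.3 CPM in vehicle library 2 and 2.69 CPM in vehicle library 4. The fitted log2 fold change of Cxcl2 was 4.43 ± 1.17, and 4.48 with DESeq2. With the block it was 4.30, at an edgeR adjusted p of 2.7e-05. Il6 (chr5:30013114-30019981), the interleukin of acute phase responses, stood at 133, 72.4, 52.5 and 0 against 2.85, 14.7, 9.69 and 0 (log2 fold change 3.30 ± 1.03, with the block 2.98 at an edgeR adjusted p of 0.0338). Ccl2, which attracts monocytes, stood at 1240, 457, 977 and 49.6 against 216, 157, 267 and 164 (1.75 ± 0.61). Nfkbia, the inhibitor and target of NF-kappaB, stood at 975, 981, 891 and 402 against 435, 280, 467 and 194 (1.23 ± 0.33). For these 5 genes PBMCsec library 4 lay within or below the range of vehicle, and the other 3 PBMCsec libraries lay above it.

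**Figure D5:**
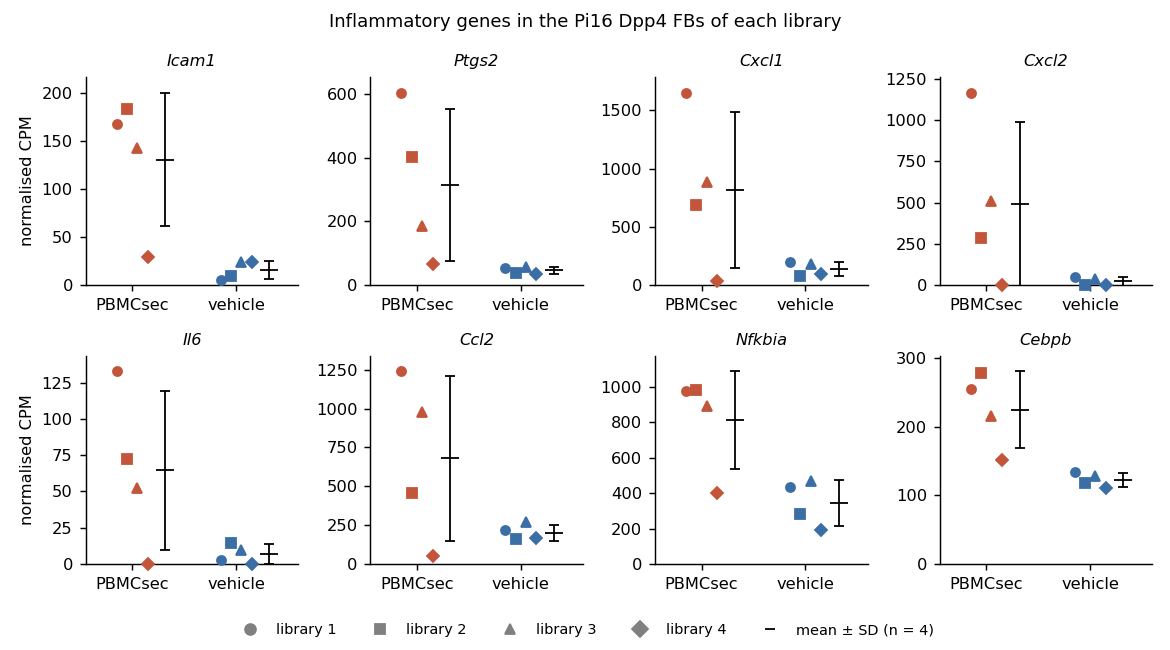
Normalised CPM of 8 inflammatory genes in the members of each library (points) with the mean and SD of each group (lines, n = 4, cut at 0 where the SD reaches below it). PBMCsec libraries 1 to 3 lie above all vehicle libraries for each gene, and PBMCsec library 4 ranges from below every vehicle library (Cxcl1 and Ccl2) to just above them (Icam1, Ptgs2 and Cebpb).

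These values came from few cells. Among members 14.6% had a UMI of Icam1, 20.4% of Ptgs2, 20.4% of Cxcl1, 6.13% of Cxcl2, 4.09% of Il6 and 16.5% of Ccl2. Icam1 was found more widely in Mgp FBs (42.5%) and Cxcl12 FBs (49.4%), and in 23.8% of Ptprc-positive and 20.4% of keratin-rich cells. Ptgs2 was found in 8.0% of Mgp FBs, 3.22% of Cxcl12 FBs, 6.14% of Ptprc-positive cells and 12.5% of keratin-rich cells. In Mgp FBs, Cxcl1 was found in 23.5% of cells, Cxcl2 in 5.5%, Il6 in 4.75% and Ccl2 in 13.25%. For Cxcl2, the 10.2% of Ptprc-positive cells with a UMI exceeded the 6.13% of members. The part that free RNA takes in the levels of these genes in members was not tested. Il6 was found in 1.20% of Ptprc-positive cells and in 0.27% of keratin-rich cells.

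NF-kappaB is a transcription factor that binds the promoters of many inflammatory genes, and the promoter sequences of the 3 genes called with the block and of Icam1 are shown for that reason. They are RefSeq sequences of GRCm38.p6, 250 bases before to 50 after the start site, all on the plus strand and written 5′ to 3′, with capitals for matches to the NF-kappaB consensus searched on both strands. Of 32851 promoters of this length, 4.51% hold a match.
Cxcl2, chr5:90903649-90903948: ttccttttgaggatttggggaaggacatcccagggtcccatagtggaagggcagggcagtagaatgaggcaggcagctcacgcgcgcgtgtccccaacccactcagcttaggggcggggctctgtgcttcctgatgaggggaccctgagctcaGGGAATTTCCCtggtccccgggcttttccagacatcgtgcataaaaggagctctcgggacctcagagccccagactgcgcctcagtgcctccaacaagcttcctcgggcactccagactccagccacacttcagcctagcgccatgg
Il6, chr5:30012864-30013163: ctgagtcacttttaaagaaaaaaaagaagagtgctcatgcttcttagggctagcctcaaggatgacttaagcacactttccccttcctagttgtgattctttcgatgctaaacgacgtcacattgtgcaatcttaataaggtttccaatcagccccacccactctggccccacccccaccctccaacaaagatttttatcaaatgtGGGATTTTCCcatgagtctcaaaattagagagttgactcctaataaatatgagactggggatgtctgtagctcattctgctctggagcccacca
Ptgs2, chr1:150099781-150100080: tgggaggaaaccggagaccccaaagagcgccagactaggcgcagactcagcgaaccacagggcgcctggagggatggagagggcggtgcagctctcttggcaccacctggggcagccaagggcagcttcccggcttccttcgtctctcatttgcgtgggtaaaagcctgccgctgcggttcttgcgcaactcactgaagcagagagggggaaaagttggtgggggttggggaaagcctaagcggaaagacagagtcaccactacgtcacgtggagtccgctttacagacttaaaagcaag
Icam1, chr9:21015690-21015989: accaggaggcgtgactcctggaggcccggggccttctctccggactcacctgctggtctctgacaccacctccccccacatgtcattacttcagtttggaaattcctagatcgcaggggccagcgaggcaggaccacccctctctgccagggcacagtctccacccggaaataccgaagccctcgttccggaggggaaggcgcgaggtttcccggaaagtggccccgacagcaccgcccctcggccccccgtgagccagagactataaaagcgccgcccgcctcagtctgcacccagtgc
In Cxcl2, 2 overlapping matches, which make up the stretch in capitals, begin 97 and 96 bases before the start site. In Il6 a single match begins 44 bases before it. The windows of Ptgs2 and Icam1 hold no match to these letters, which says nothing of sites that differ from them or lie elsewhere.

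The other genes named among the higher ones were Stx11, a vesicle fusion protein (log2 fold change 1.78), Rgs3, a regulator of G protein signalling (1.53), Gm12840 (1.47), Txnrd1, Cebpb, Chordc1 (0.85), Tob2 (0.82) and Bag3. Stx11 and Rgs3 each stood at 4.91 normalised CPM in vehicle library 2, where 3 UMIs would be 13.3 CPM. Cebpb, a transcription factor of inflammatory genes, stood at 255, 279, 215 and 151 normalised CPM with PBMCsec and at 134, 118, 128 and 110 with vehicle (0.85 ± 0.23). Txnrd1, the thioredoxin reductase, stood at 122, 128, 73.6 and 43.9 against 22.8, 19.7, 41.8 and 40.8 (1.29 ± 0.35). Bag3, a co-chaperone, stood at 76.1, 83.6, 59.9 and 70.7 against 42.7, 49.1, 38.8 and 46.3 (0.70 ± 0.22). Without PBMCsec library 2, the log2 fold change of Gm12840 was 0.86, and in the libraries numbered 3 and 4 alone it was 0.52. On the lower side, Tm4sf1, a membrane protein of the tetraspanin-like family, stood at 19.6, 22.3, 38.2 and 31.7 against 54.1, 83.5, 89.5 and 48.2 (-1.16 ± 0.29). Luc7l2, a splicing factor, stood at 213, 212, 268 and 257 against 370, 383, 347 and 351 (-0.60 ± 0.20). The others were Gm26532, Ptbp2, Tcp11l2, Dnm3os, Me3, Snx33, Npepl1 and CT025619.1, with log2 fold changes from -1.61 (Me3) to -0.75 (Npepl1). Me3 stood at 0 in PBMCsec libraries 1 and 2, where 3 UMIs would be 6.18 and 14.9 CPM. Leaving out each library moved Dnm3os between -1.45 and -0.70. In the edgeR fit without a block, the lowest adjusted p of these 20 genes was 0.469, that of Icam1 and Ptgs2.

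Lists of related genes are given by their counts, beside all 7755 genes, of which 3840 were higher and 3915 lower with a median log2 fold change of -0.004. The counts are from the edgeR fit without a block, which called no member of any list. With the block it called Il6 and Cxcl2 of the inflammatory list. Of 11 tested genes of inflammatory FBs, 10 were higher with PBMCsec, 6 at an unadjusted p under 0.05, with a median of 1.02. Beside those already given, Ptx3, a soluble pattern recognition protein, stood at 2918, 1855, 768 and 103 normalised CPM against 686, 595, 330 and 161, and the eosinophil chemokine Ccl11 had a log2 fold change of 0.09. The summed level of this list in plain CPM was 10370, 6403, 5504 and 1255 with PBMCsec and 3711, 3756, 2888 and 1585 with vehicle, highest in library 1 and lowest in library 4 of PBMCsec. All 16 endoplasmic reticulum chaperone genes were higher, 5 at an unadjusted p under 0.05, with a median of 0.43. That median was 0.28 to 0.53 when each library was left out and 0.76 in the libraries numbered 1 and 2 alone. Hspa5 (BiP), the main chaperone of that compartment, stood at 1662, 2357, 602 and 462 normalised CPM against 802, 826, 496 and 429 (0.99 ± 0.44). The chaperone sums were 6445, 8370, 4376 and 3883 CPM against 4699, 4626, 4069 and 3770, higher with PBMCsec at each number and by the most in the libraries numbered 1 and 2. Of 23 immediate early and heat shock genes 20 were higher, 4 at an unadjusted p under 0.05, with a median of 0.32, which was -0.000128 without PBMCsec library 2. These 4 were Ier3, an immediate early gene, and the heat shock genes Hsp90aa1, Hspa8 and Hspa1b. Tissue dissociation is known to induce genes of this list, and its part in these values was not tested.

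Lists of cell identity and matrix genes are given in the same way. Of 24 progenitor genes 13 were higher and 11 lower, with a median of 0.07. Of these, Procr had an unadjusted p under 0.05 at 200, 251, 92.4 and 85.3 normalised CPM against 68.3, 24.6, 92.5 and 73.2 (1.06 ± 0.37), as had Has1, a hyaluronan synthase (1.32 ± 0.54), and Wnt2 in the other direction (-0.75 ± 0.35). The 14 tested collagens outside the rule divided 7 to 7 (median 0.005, and -0.39 to 0.25 when each library was left out), and the rule genes Col1a1, Col1a2 and Col3a1 had log2 fold changes of -0.38, -0.18 and -0.34. Elastic fibre genes divided 7 to 12 (-0.02), peptidases and inhibitors 15 to 13 (0.04) and genes of TGF-beta, BMP and Wnt signalling 12 to 6 (0.08). Proteoglycans divided 5 to 6 with a median of -0.25, with Srgn higher (0.62 ± 0.25) and Podn lower (-0.90 ± 0.34) at an unadjusted p under 0.05, and the direction of that median changed with the processing. All 10 tested genes of the integrin list were lower, with 0 at an unadjusted p under 0.05. Their median was -0.23, and -0.36 to -0.12 when each library was left out. It was -0.049 at a limit of 5% mitochondrial UMIs and -0.42 in the libraries numbered 1 and 2 alone. Of 17 interferon-induced genes 7 were higher and 10 lower (median -0.13, but 0.33 in the libraries numbered 1 and 2 alone and -0.30 to 0.040 when each library was left out), and 4 were lower at an unadjusted p under 0.05, Oasl2, Ifit2, Rtp4 and Xaf1. Clock genes divided 5 to 7 (median -0.11, and -0.45 to 0.18 when each library was left out). Their summed level was 891, 963, 402 and 367 CPM with PBMCsec and 982, 1151, 473 and 398 with vehicle. It was higher in the libraries numbered 1 and 2 than in those numbered 3 and 4, and lower with PBMCsec at each number.

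The paper that lists these data concerns mouse wounds and scars given PBMCsec topically or by injection, and human skin and scars. The labels give injected dorsal skin and no scar, so the paper's gene list may not have been drawn from these libraries alone. For Fn1, Igfbp4, Igfbp5, Ecm1, Postn, Mfap5, Timp1 and Timp3, described as increased, the paper cites panels of topically treated mouse scars, which are unlike these injected libraries. Plau, Htra1, Htra3 and Aebp1 are described as elevated with topical and with injected PBMCsec, and Eln and Txnip as reduced in its mouse and human datasets. These statements of the paper cover all its FBs rather than this class. Of the genes the paper names for mouse skin, the 12 with the highest level in members were Fn1, Postn, Igfbp5, Mfap5, Htra3, Timp3, Aebp1, Eln, Htra1, Igfbp4, Plau and Ecm1. Their log2 fold changes ran from -0.47 (Htra3, a serine protease) to 0.42 (Plau), each with an edgeR adjusted p of 0.999. Leaving out each library moved Htra3 between -0.73 and -0.13 and Plau between 0.20 and 0.63, and in the libraries numbered 3 and 4 alone they were -0.15 and 0.00581. Eln, the elastin gene, stood at 853, 630, 145 and 1002 normalised CPM with PBMCsec and at 552, 565, 1060 and 397 with vehicle (0.02 ± 0.45), so single libraries differed more than the groups. Fn1, the fibronectin gene, stood at 14866, 12575, 9177 and 7464 against 16482, 16493, 11050 and 10108 (-0.30 ± 0.31), again with overlapping groups. Fn1 and Htra3 were lower with PBMCsec at each library number, each with an edgeR adjusted p of 0.936 with the block. All 23 tested genes of this list divided 10 to 13, with a median of -0.04 and a range of -1.81 to 1.55. At an unadjusted p under 0.05, 2 were lower and 0 higher. Txnip, which binds thioredoxin, stood at 363, 306, 380 and 267 normalised CPM with PBMCsec and at 361, 545, 553 and 536 with vehicle (-0.60 ± 0.23). Timp1, a metalloproteinase inhibitor, stood at 28.3, 33.4, 37.7 and 72.3 against 62.6, 609, 31.3 and 50.03 (-1.81 ± 0.77), with only vehicle library 2 far from the others.

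Whether the response to PBMCsec differed between members and the other FB classes was tested as an interaction in edgeR with library as a block. Of 8595 genes, 0 (0%) were called against Mgp FBs and 0 (0%) against Cxcl12 FBs, with 243 and 234 at an unadjusted p under 0.05. For Icam1 the effect in members minus that in Mgp FBs was 0.98 ± 0.73 on the log2 scale and minus that in Cxcl12 FBs 1.14 ± 0.72. For Ptgs2 these differences were -0.57 ± 0.87 and 0.60 ± 1.01, and each had an edgeR adjusted p of 1. Among vehicle libraries, only 3 and 4 held at least 10 cells of the other classes, so these errors are large.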

How the data were processed

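The deposited matrices held UMI counts per gene and barcode, which the authors made with Cell Ranger (3.0.2 per the labels) against mm10 and which list 31053 genes. Members and gene lists were chosen with earlier results of these data known. Counts were summed per library over members and compared with edgeR 4.0.16 (R 4.3.3; TMM factors, genes kept by filterByExpr, quasi-likelihood test, p-values adjusted after Benjamini and Hochberg), leaving out Gm42418, Gm17056 and Gm26917. DESeq2 1.42.0 and limma 3.58.1 were alternatives. Shares were compared by exact permutation over 70 labellings. Levels between classes used plain CPM, with 10 CPM added in ratios. The edgeR comparison of PBMCsec with vehicle was checked on simulated counts with the same dispersion for every gene, so genes with more spread are not covered. It called 6 of 7282 unchanged genes, 42 of 95 changed 2-fold and 95 of 96 changed 4-fold. The other tests were not simulated. Named genes were the markers, the 12 highest of the study's list, 10 per direction (called, else those without overlap by unadjusted p), the 3 highest of each list, and 25 higher and 10 lower between classes. Others are named as chosen after their values were seen. Over 3181 genes, deviations from group means correlated between equal library numbers (r = 0.354, 0.265, 0.236 and 0.443), so numbers were taken to pair libraries. Unequal numbers within 1 and 2 (0.116 and 0.232) and within 3 and 4 (0.405 and 0.233) also correlated, so a split of numbers 1 and 2 from 3 and 4 cannot be told apart from a pairing. Whole libraries held 14753926 to 37880651 UMIs. Genes were placed with GENCODE M21 (79 of 80 matched).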

Additional observations from a re-analysis of the deposited data

Results flagged for a closer look

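Of 150 groups of 4 libraries examined, 4 held a library that stood apart from the others by Dixon's criterion, where chance gives about 1 in 20, or 7.5. The summed skeletal muscle genes of members reached 4165 CPM in PBMCsec library 2 against 2.28 to 6.36 in the others. Nfkbia was lowest in PBMCsec library 4, at 402 normalised CPM against 891 to 981. CT025619.1 was lowest in PBMCsec library 1, at 23.9 against 33.3 to 33.7. Aebp1, a collagen-binding protein gene, was highest in vehicle library 4, at 1389 against 570 to 697. Outside the cells kept, 158 barcodes with over 10% mitochondrial UMIs met the rest of the rule for members, namely 10, 25, 15 and 44 in PBMCsec libraries 1 to 4 and 6, 2, 24 and 32 in vehicle libraries 1 to 4. In PBMCsec library 2 these outnumbered the 22 members.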

How the results depend on the processing

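Genes called between PBMCsec and vehicle numbered 22 with no filter on low counts (19 higher and 3 lower, muscle genes of a single cell among them), 3 with the replicate block, 6 in libraries numbered 1 and 2 alone, 2 with DESeq2 and 0 to 6 when each library was left out, where the 6 came without PBMCsec library 4. It was 0 with the other settings run (limit of 5% mitochondrial UMIs, at least 5 markers, without the 5% of cells with the most UMIs, at most 40 cells per library, libraries numbered 3 and 4 alone, limma, and the number pair as a term, which was added after seeing the data). The limit of 5% leaves 3 libraries per group. The block changed no other call. The interaction gave 16 and 6 calls with no filter. In libraries numbered 3 and 4 alone, the shares of FBs and of all cells turned to 0.318 and 0.308 points. Of 37 named genes 8 changed sign under some setting and 29 under none, and 0 of the 20 genes named by direction did. Postn gave 0.043 without the cells with the most UMIs and 0.10 in numbers 1 and 2 (-0.58 to 0.23 leaving out libraries). Igfbp5 gave -0.084 in numbers 3 and 4 (-0.060 to 0.74). Mfap5 gave 0.041 at 5% mitochondrial UMIs and 0.038 in numbers 1 and 2 (-0.23 to 0.076). Aebp1 gave -0.031 with the block, -0.10 at 5%, -0.00460 with 5 markers, -0.000919 without the cells with the most UMIs, -0.10 with 40 cells, -0.22 in numbers 1 and 2 and -0.032 with the number pair (-0.38 to 0.36). Eln gave -0.075 with the block, -0.083 with 40 cells, -0.35 in numbers 3 and 4 and -0.00579 with limma (-0.28 to 0.37). Htra1 ran from -0.076 to 0.60 and Igfbp4 from -0.10 to 0.39 leaving out libraries. Ecm1 gave 0.10 at 5% and 0.028 in numbers 3 and 4 (-0.25 to 0.048). Median log2 fold changes of elastic fibre genes were -0.15 with 40 cells and 0.10 in numbers 1 and 2 (-0.15 to -0.00845 leaving out libraries). Those of proteoglycans were 0.00576 at 5%, 0.082 with 40 cells, 0.11 in numbers 1 and 2, 0.070 in numbers 3 and 4 and -0.028 with limma (-0.41 to -0.000984). In numbers 1 and 2, chaperones gave 0.76, interferon genes 0.33 and integrins -0.42, and integrins gave -0.049 at 5%. Immediate early genes ran from -0.000128 to 0.56. Leaving out libraries also moved the medians of collagens (-0.39 to 0.25), clock genes (-0.45 to 0.18), progenitor genes (-0.031 to 0.16), interferon genes (-0.30 to 0.040), peptidases and inhibitors (-0.060 to 0.17), signalling genes (-0.048 to 0.13) and the study's list (-0.17 to 0.036) across 0. The causes were not tested. All 25 higher and 10 lower genes between classes kept their direction in every library at 5% mitochondrial UMIs, with at least 5 markers and after thinning to 3000 UMIs. The number of cells limits the libraries numbered 2, with 22 members each.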
